A study of Danio rerio with 9 samples.

Results

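The genes described here are those of the cytosolic ribosomal proteins, the protein parts of the ribosomes that translate nuclear-encoded mRNA. They were taken from the array's probe annotation as genes with 1 symbol that begins with rpl or rps, with the 3 S6 kinase genes left out. Of the 5355 named genes on the array, 16 met this rule, each through 1 probe. There were 13 genes of the large subunit (rplp0, rpl6, rpl9, rpl10a, rpl13, rpl18, rpl19, rpl23, rpl28, rpl34, rpl35a, rpl36a and rpl38) and 2 of the small subunit (rps18 and rps20). The last of the 16, rps19bp1, met the rule by its symbol only. It encodes a protein that binds RPS19 and is not a component of the ribosome, and its values are kept apart from the 15 ribosomal protein genes where this matters. A current RefSeq gene table holds 84 genes of the same name pattern without rps19bp1, so that the 15 cover a minority of them. The remainder were not analysed here.

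RNA was measured on 9 one-colour arrays of hindbrain tissue from zebrafish embryos that carry an islet1-GFP transgene. The embryos were 19 to 20 hours old after fertilization, and a sample was a thick slice across the hindbrain around 1 rhombomere, a segment of the developing hindbrain, from 8 to 10 embryos. The 3 groups of 3 arrays were rhombomere 4 of embryos injected with a morpholino against hoxb1a (Hoxb1a-deficient r4), rhombomere 2 of untreated embryos (normal r2) and rhombomere 4 of untreated embryos (normal r4). Groups were taken from the sample titles. The tissue label of Hoxb1a-deficient r4 in experiment 3 does not say deficient, while its title and treatment protocol do, and normal r2 array 2 has no tissue label. Experiment 1 held Hoxb1a-deficient r4 and normal r4, experiment 2 all 3 tissues with 1 sample apiece, and experiment 3 both r4 tissues once and normal r2 in 2 samples, 3a and 3b. The sources used here give neither the kind of morpholino nor any control injection, and an effect of injection and an effect of Hoxb1a loss cannot be told apart. A slice holds all cell types of its segment and its neighbours' edges, and each sample pools several embryos.

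Ribosomes consist of a small subunit, which reads the mRNA, and a large subunit, which joins amino acids into protein. Both are assembled from ribosomal RNA and proteins, and vertebrate mRNAs for the proteins begin with a terminal oligopyrimidine tract, through which growth signals set how strongly they are translated. Ribosomal protein genes are transcribed at high levels in most dividing cells, and the loss of a single one can have effects confined to some tissues: mutation of Rpl38 in the mouse alters the axial skeleton and the translation of some Hox mRNAs, and zebrafish that carry 1 mutated copy of any of several ribosomal protein genes develop nerve sheath tumours.

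Values are given in multiples of the array median: a value of 147 is 147 times the signal of the median probe. Probes differ in how they bind, and values are therefore compared for the same gene between arrays, not between genes. The targeted gene, hoxb1a, read 3.17, 1.52 and 1.51 on the Hoxb1a-deficient r4 arrays, 0.774, 0.590 and 0.567 on the normal r2 arrays and 3.02, 2.42 and 1.88 on the normal r4 arrays (experiments 1, 2 and 3 for the r4 tissues and arrays 2, 3a and 3b for normal r2, an order kept throughout). It was lower in normal r2 than in normal r4 (log2 fold change -1.60 ± 0.16, SE, limma adjusted p = 0.00137). Hoxb1a-deficient r4 differed from normal r4 by -0.30 ± 0.15 (limma adjusted p = 0.887). Since a morpholino need not lower the level of the transcript it targets, the probe bears on the r2 label and does not check the knockdown. Markers of neighbouring tissue differed between r2 and r4 slices. By limma's test of normal r2 against normal r4, 5 of 6 otic genes and 1 of 4 skin genes (epcam) were lower. Also lower were 3 of 3 genes of nearby hindbrain segments: egr2b of rhombomeres 3 and 5, hoxa3a and hoxb3a. In the same test 3 of 6 midbrain and isthmus genes were higher. Of all probes, 1.70% were called in that comparison. The otic sum was 44.4 to 89.7 in Hoxb1a-deficient r4, 8.63 to 10.0 in normal r2 and 39.2 to 116 in normal r4. By the same test, 1 of 6 neural progenitor genes (fabp7a) and 1 of 5 neuron genes were lower in normal r2 than in normal r4. In Hoxb1a-deficient r4 against normal r2, 1 neural progenitor gene (gfap) was lower and 1 neuron gene was higher, beside 2.21% of all probes called. None of these lists had a gene past the test between the r4 tissues, those of neural progenitors (0 of 6) and neurons (0 of 5) included. With 0.0123% of all probes called there, no call would be expected in lists of this size, and likeness does not follow. The fitted values of the neural progenitor genes between the r4 tissues ran from -0.98 (fabp7a) to 0.05, with a median of -0.18. The part of these tissues and cell types in the results below was not tested.

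The probes of the ribosomal protein genes were among the brightest on the arrays, and for most of them the array's upper limit was reached. On each array a number of probes, between 9 and 243, shared the array's highest value, which is read as saturation. The 16 genes stood at that value in 45 of their 144 readings, or 31.25%, against 0.674% of all tested readings. At least 1 such reading was found for 11 of the 16 genes, against 283 of 16227 probes (1.74%). On every array the 15 ribosomal protein probes lay at or above the 84.9 percentile of all probes, whereas rps19bp1 lay between the 60.0 and 70.4 percentiles.

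**Figure D1:**
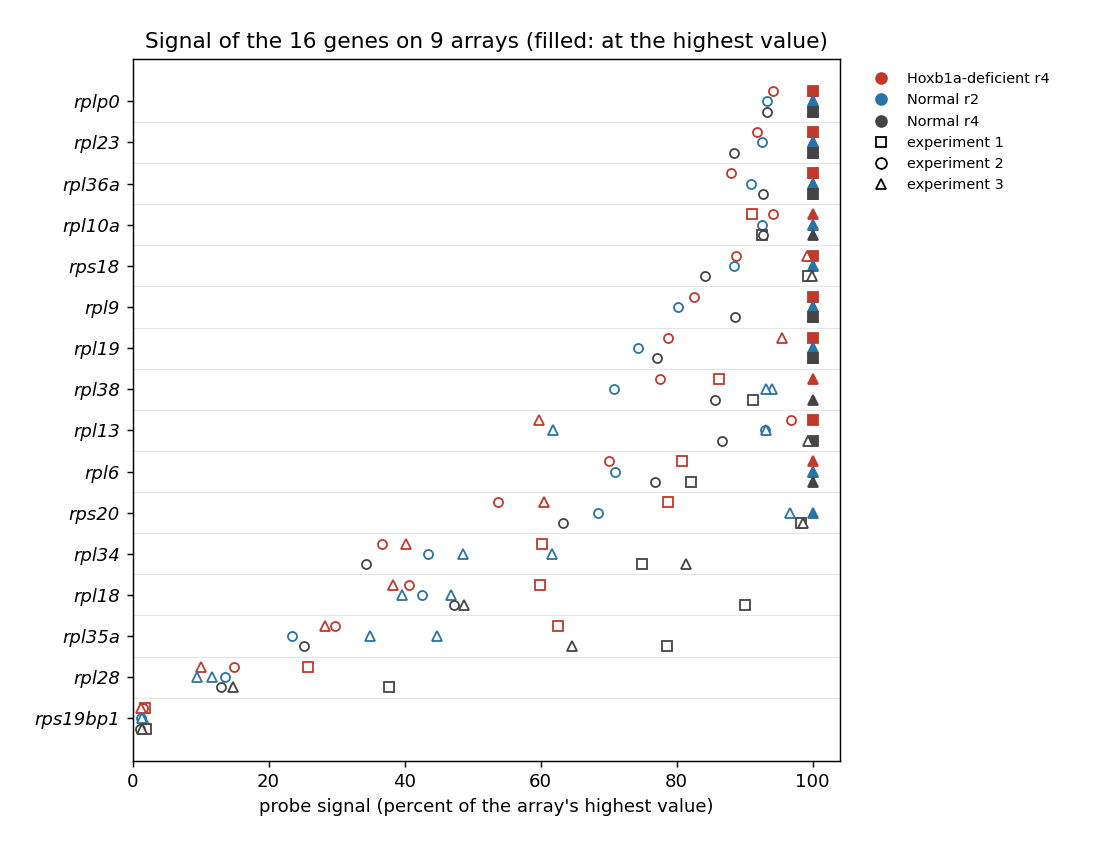
Signal of the 16 genes on the 9 arrays as a percentage of the highest value on the same array; colours are tissues, shapes are experiments and filled symbols mark readings at the highest value. The readings of rplp0, rpl23, rpl36a and rpl9 stood at 100% on all 6 arrays of experiments 1 and 3, whereas rpl18, rpl28, rpl34, rpl35a and rps19bp1 stayed below it on all 9 arrays.

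The highest value itself differed between arrays. It was 147, 177 and 114 on the Hoxb1a-deficient r4 arrays of experiments 1, 2 and 3, 190.3, 107 and 119 on normal r2 arrays 2, 3a and 3b, and 128, 186 and 112 on the normal r4 arrays. It was thus highest in experiment 2 in every tissue. None of the 48 readings of the 16 genes reached it in experiment 2, against 13 of 32 readings in experiment 1 and 32 of 64 in experiment 3. By tissue, saturated readings numbered 14 of 48 in Hoxb1a-deficient r4, 17 of 48 in normal r2 and 14 of 48 in normal r4. Saturation was thus spread over the tissues and lay in 2 of the 3 experiments.

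Among the large subunit genes, rplp0, which encodes the base of the stalk that recruits translation factors, read 147, 167 and 114 on the Hoxb1a-deficient r4 arrays, 178, 107 and 119 on the normal r2 arrays and 128, 174 and 112 on the normal r4 arrays. Every one of these readings outside experiment 2 equals the highest value of its array. The same holds for rpl23, which read 147, 162 and 114 on the Hoxb1a-deficient r4 arrays, 176, 107 and 119 on the normal r2 arrays and 128, 165 and 112 on the normal r4 arrays, and for rpl36a and rpl9. For these 4 genes only the 3 arrays of experiment 2 gave a reading below the limit.

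A second set of genes was saturated on some arrays. rpl19 stood at the limit on 5 arrays, with Hoxb1a-deficient r4 of experiment 3 the exception at 109 against a limit of 114. rpl10a, a protein of the mobile stalk beside the exit path of spent tRNA, read 134, 167 and 114 on the Hoxb1a-deficient r4 arrays, 176, 107 and 119 on the normal r2 arrays and 119, 173 and 112 on the normal r4 arrays. It was saturated on the 4 arrays of experiment 3 and unsaturated in experiments 1 and 2, and rpl6 showed the same split. rps18, a protein of the head of the small subunit, was saturated on 3 arrays, 1 of Hoxb1a-deficient r4 and 2 of normal r2. rpl38 read 127, 137 and 114 on the Hoxb1a-deficient r4 arrays, 135, 101 and 111 on the normal r2 arrays and 117, 159 and 112 on the normal r4 arrays, with the 2 readings of experiment 3 in r4 tissue at the limit. Its ranges overlapped in all 3 tissues.

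A difference between 2 saturated readings carries no information on the gene, and many of the differences between tissues were of this kind. Within the 3 experiments there are 144 differences between tissues for the 16 genes. In 39 of them both readings were saturated, and all 39 equal the log2 ratio of the highest values of the 2 arrays. In Hoxb1a-deficient r4 against normal r4 of experiment 1, for example, rplp0, rpl9, rpl13, rpl19, rpl23 and rpl36a each differed by 0.20 on the log2 scale, which is the ratio of 147 to 128. In another 14 differences 1 of the readings was saturated, and in 91 neither was. A reading below the limit can still lie close to it. In experiment 1, rpl10a stood at 91.2% of the limit in Hoxb1a-deficient r4 and 92.5% in normal r4, and differed by 0.18. The genes with a pair of saturated readings numbered 9 in Hoxb1a-deficient r4 against normal r4, 7 in normal r2 against normal r4 and 6 in Hoxb1a-deficient r4 against normal r2.

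**Figure D2:**
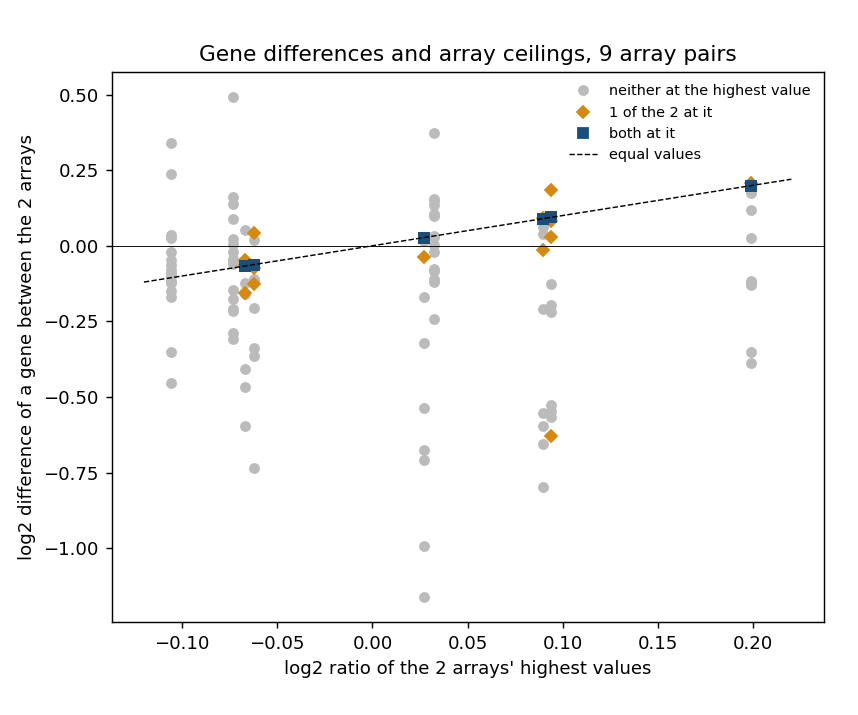
Log2 difference of each of the 16 genes between 2 arrays of the same experiment (vertical axis) against the log2 ratio of the highest values of those arrays (horizontal axis), for 9 array pairs and 144 differences. The 39 differences with both readings at the highest value lie on the dashed line of equal values; those with neither at it range from -1.16 to 0.49.

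With the experiment as a replicate block, none of the 16 genes passed the test in any of the 3 comparisons. In Hoxb1a-deficient r4 against normal r4, 0 of 16 were called by limma at an adjusted p under 0.05, beside 0.0123% of all 16227 probes, and 2 of 16 had an unadjusted p under 0.05, beside 5.74% of all probes. In normal r2 against normal r4, 0 of 16 were called beside 1.70% of all probes, and 0 of 16 had an unadjusted p under 0.05 beside 11.0%. In Hoxb1a-deficient r4 against normal r2, 0 of 16 were called beside 2.21% of all probes, and 1 of 16 had an unadjusted p under 0.05 beside 15.2%. At these shares a list of 16 genes would hold few or no calls, so that the counts near 0 do not set these genes apart. The 3 groups overlapped for all 16 genes in each comparison. For rplp0, rpl23, rpl36a and rpl9 this overlap was fixed by the limits of the arrays in experiments 1 and 3. The limits fixed it as well for rpl19 in each comparison, and for rpl10a and rpl6 in both comparisons with normal r2. They also fixed it for rpl13 between the r4 tissues and for rps18 in Hoxb1a-deficient r4 against normal r2. In these cases the overlap says nothing of the gene. Groups did not overlap for 2.08%, 8.76% and 10.5% of all probes in the same order of comparisons, so that few such genes would be expected among 16. The median fitted log2 fold change of the 16 genes was 0.01, 0.02 and -0.01 in that order, beside -0.01, 0.04 and -0.04 over all probes. With saturated readings treated as missing, the medians of the 16 genes were -0.10, -0.01 and -0.08. Over the 5 genes that were never saturated, rps19bp1 among them, they were -0.33, -0.16 and -0.06. The choice of genes matters there. In experiment 2, where no reading was saturated, the median difference between the r4 tissues was 0.14 for the 5 and -0.05 for the 16.

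Tests of single genes are given for the 6 genes that were saturated on at most 1 array (rps20, rpl18, rpl34, rpl35a, rpl28 and rps19bp1). For rpl13, rps18 and rpl38, which were saturated on 2 or 3 arrays, differences are given without a test. The small subunit gene rps20, whose product lies in the head of the subunit, read 116, 95.1 and 69.1 on the Hoxb1a-deficient r4 arrays, 130.3, 107 and 115 on the normal r2 arrays and 126, 118 and 110.4 on the normal r4 arrays, with the 107 of normal r2 array 3a at the limit. Its normal r4 readings of experiments 1 and 3 stood at 98.3% and 98.6% of the limit, and that of normal r2 array 3b at 96.6%. Readings this close to the limit may be compressed, so that the differences taken from them are not free of it. rps20 was lower in Hoxb1a-deficient r4 than in normal r4 in each of the 3 experiments. The groups overlapped through experiment 1, in which Hoxb1a-deficient r4 read above the normal r4 sample of experiment 3. The log2 fold change was -0.37 ± 0.13 (SE, n = 3 per group, 95% interval -0.67 to -0.07, limma adjusted p = 0.810), made up of -0.12, -0.31 and -0.68 in experiments 1, 2 and 3, and it was -0.24 without the Hoxb1a-deficient array of experiment 3. In slices of mixed cells, fewer cells that carry a transcript and less of it per cell cannot be told apart, here and for the genes below.

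rpl18, a large subunit gene mutated in some patients with Diamond-Blackfan anaemia, an inherited failure of red cell formation, read 88.2, 72.0 and 43.7 on the Hoxb1a-deficient r4 arrays, 80.9, 50.1 and 47.3 on the normal r2 arrays and 115, 88.0 and 54.6 on the normal r4 arrays. It too was lower in Hoxb1a-deficient r4 in each experiment, by a similar amount in each (-0.39, -0.29 and -0.32 on the log2 scale). In both tissues it read lower in experiment 3 than in experiments 1 and 2 by more than that (0.69 to 1.08). Experiments 1 and 2 differed by 0.29 in Hoxb1a-deficient r4 and 0.39 in normal r4. The fold change was -0.33 ± 0.11 (95% interval -0.58 to -0.09, limma adjusted p = 0.771). rps20 and rpl18 were the 2 of the 16 genes that were lower in every experiment, beside 12.5% of all probes, and rps18 the 1 that was higher in every experiment, beside 10.6%. These counts are not comparable with the shares. For the 9 genes with a pair of saturated readings the array limits fixed a positive difference, so that none could be lower in every experiment. The differences of rps18 were 0.21 in experiment 1, where the Hoxb1a-deficient reading was at the limit, and 0.01 and 0.02 in experiments 2 and 3. Its normal r4 reading of experiment 1 stood at 99.4% of the limit. In experiment 3 its readings stood at 99.1% (Hoxb1a-deficient r4) and 99.9% (normal r4) of the limit. Taken relative to the limit of each array, the difference in experiment 3 was -0.01, so that its sign does not hold there.

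**Figure D3:**
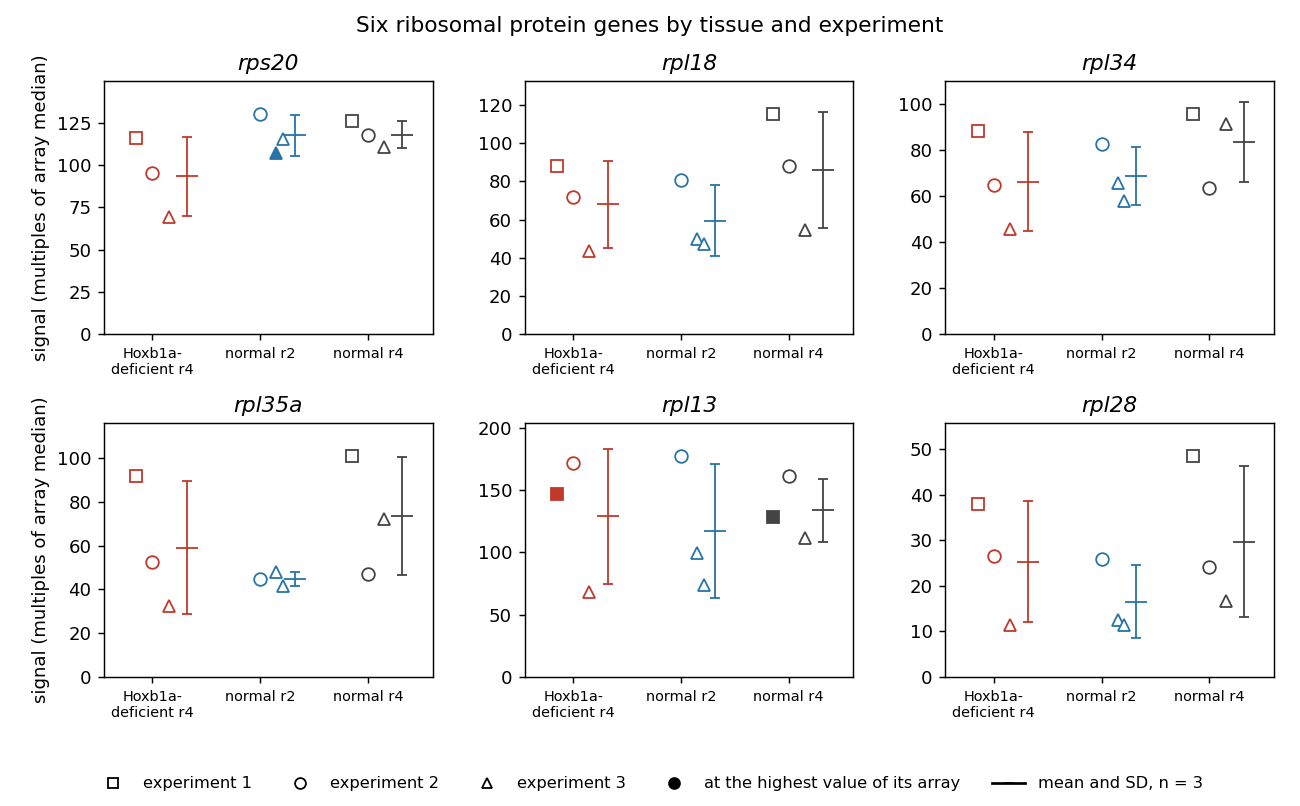
Signal in multiples of the array median for rps20, rpl18, rpl34, rpl35a, rpl13 and rpl28 in Hoxb1a-deficient r4, normal r2 and normal r4; shapes are experiments, filled symbols are readings at the array's highest value and bars are the mean and SD of 3 arrays. The experiments are spread as widely as the tissues, for example from 11.5 to 38.0 for rpl28 in Hoxb1a-deficient r4.

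rpl34, rpl35a and rpl13 differed between the r4 tissues mainly in experiment 3. rpl34, a large subunit gene, read 88.5, 64.8 and 45.8 on the Hoxb1a-deficient r4 arrays, 82.6, 66.0 and 58.0 on the normal r2 arrays and 95.9, 63.8 and 91.3 on the normal r4 arrays. Hoxb1a-deficient r4 differed from normal r4 by -0.12, 0.02 and -0.99 on the log2 scale in the 3 experiments, with a fitted value of -0.36 ± 0.20 (95% interval -0.82 to 0.09, limma adjusted p = 0.890). rpl35a, another gene of the large subunit that is mutated in some patients with Diamond-Blackfan anaemia, read 92.0, 52.6 and 32.3 on the Hoxb1a-deficient r4 arrays, 44.6, 47.9 and 41.6 on the normal r2 arrays and 101, 47.0 and 72.3 on the normal r4 arrays. It differed by -0.13, 0.16 and -1.16 in experiments 1, 2 and 3, and by -0.38 ± 0.22 in the fit (95% interval -0.87 to 0.12, adjusted p = 0.890).

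rpl13 read 147, 171 and 68.2 on the Hoxb1a-deficient r4 arrays, 177, 99.6 and 73.7 on the normal r2 arrays and 128, 161 and 111 on the normal r4 arrays. Both of its readings in experiment 1 were at the limit, and it differed between Hoxb1a-deficient and normal r4 by 0.09 in experiment 2 and -0.71 in experiment 3. The normal r4 reading of rpl13 in experiment 3 stood at 99.4% of the limit and may be compressed. Both r4 arrays of experiment 3 carry the fitted values of rpl34 and rpl35a. Without the Hoxb1a-deficient one they were -0.19 for rpl34 and -0.07 for rpl35a, and without the normal r4 one -0.05 for rpl34 and -0.08 for rpl35a. The normal r4 array gave the highest reading of experiment 3 for rpl34, rpl35a, rpl13, rpl28 and rpl18, above both the Hoxb1a-deficient array and both normal r2 arrays. Of the 8 genes with no saturated reading in either r4 array of experiment 3, 7 were lower in Hoxb1a-deficient r4, with a median difference of -0.61, beside -0.18 for the 2034 unsaturated probes with a mean signal of 10 or more over the pair of arrays. The 8 genes were not held to that signal. They include rps19bp1, at 1.43 and 1.60, and rps18, at 99.1% and 99.9% of the limit. Also among them are rpl13 and rps20, whose normal r4 readings stood at 99.4% and 98.6% of the limit.

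rpl28, whose protein is present in animals and absent from budding yeast, read 38.0, 26.5 and 11.5 on the Hoxb1a-deficient r4 arrays, 25.8, 12.5 and 11.3 on the normal r2 arrays and 48.4, 24.1 and 16.6 on the normal r4 arrays. The difference between Hoxb1a-deficient and normal r4 was -0.35, 0.14 and -0.54 in experiments 1, 2 and 3 and did not keep its sign. The fitted value was -0.25 ± 0.15 (95% interval -0.59 to 0.09, limma adjusted p = 0.890), and leaving out 1 array moved it between -0.44 (without normal r4 of experiment 2) and -0.10 (without normal r4 of experiment 3). The non-ribosomal rps19bp1 read 2.59, 2.80 and 1.43 on the Hoxb1a-deficient r4 arrays, 2.22, 1.66 and 1.65 on the normal r2 arrays and 2.54, 1.99 and 1.60 on the normal r4 arrays, with fully overlapping ranges (fold change against normal r4 0.12 ± 0.15, 95% interval -0.21 to 0.45, adjusted p = 0.978).

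Normal r2 was set against normal r4 to compare segments with and without the Hoxb1a domain. rpl18, rpl35a and rpl38 were lower in normal r2 in each within-experiment difference, beside 18.7% of all probes, and rps19bp1 was higher in each, beside 23.2%. For the 7 genes with a pair of saturated readings the array limits fixed opposite signs for arrays 3a and 3b. The counts are thus not comparable with the shares. For rpl18 the differences were -0.12 in experiment 2 and -0.12 and -0.21 for arrays 3a and 3b of experiment 3, with a fitted value of -0.16 ± 0.12 (95% interval -0.42 to 0.10, limma adjusted p = 0.778). For rpl35a they were -0.08, -0.60 and -0.80, with a fitted value of -0.32 ± 0.24 (95% interval -0.85 to 0.21, adjusted p = 0.787). The rpl38 differences were -0.24, -0.16 and -0.01, the last 2 against a saturated normal r4 reading, so that the normal r4 level is a lower bound there.

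The remaining unsaturated genes changed sign between experiments. rpl34 in normal r2 differed from normal r4 by 0.37 in experiment 2 and by -0.47 and -0.65 in arrays 3a and 3b of experiment 3, and rpl28 differed by 0.10, -0.41 and -0.55. Without the normal r4 array of experiment 3, the fitted difference between normal r2 and normal r4 was 0.36 for rpl34 and 0.09 for rpl35a, against -0.08 and -0.32 with it. rps20 differed by 0.14 ± 0.14 (95% interval -0.18 to 0.46, limma adjusted p = 0.892), and rps19bp1 by 0.10 ± 0.16 (95% interval -0.25 to 0.45, adjusted p = 0.958).

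Hoxb1a-deficient r4 was set against normal r2 to ask how far the injected r4 tissue resembled r2. This comparison and the other 2 share arrays, so that the values are not independent of those above. rps20, the gene of the 16 with an unadjusted p under 0.05, differed by -0.46 in experiment 2, and by -0.63 and -0.74 against arrays 3a and 3b in experiment 3, where array 3a was saturated and the difference from it is thus at least of that size. The fitted log2 fold change was -0.51 ± 0.14 (95% interval -0.83 to -0.19, limma adjusted p = 0.120). Without the Hoxb1a-deficient array of experiment 3 it was -0.34 with an adjusted p of 0.645. rpl13, rpl18, rpl34 and rps20 were lower in Hoxb1a-deficient r4 in each within-experiment difference, beside 30.5% of all probes, and rpl38 was higher in each, beside 13.7%. For the 6 genes with a pair of saturated readings the array limits fixed opposite signs against arrays 3a and 3b. Here too the counts are not comparable with the shares. For rpl34 the fitted value was -0.29 ± 0.22 (95% interval -0.77 to 0.20, adjusted p = 0.591), which was -0.04 without the Hoxb1a-deficient array of experiment 3 and -0.12 without normal r2 array 2. For rpl18 it was -0.17 ± 0.12 (95% interval -0.43 to 0.09, adjusted p = 0.536). Against arrays 3a and 3b, rpl34 differed by -0.53 and -0.34, and rpl18 by -0.20 and -0.11. Unsaturated probes with a mean signal of 10 or more had medians of -0.48 and -0.37 there, so that bright probes in general read lower. The values of rpl28 (-0.01 ± 0.16) and rpl35a (-0.06 ± 0.24) changed sign between arrays.

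**Figure D4:**
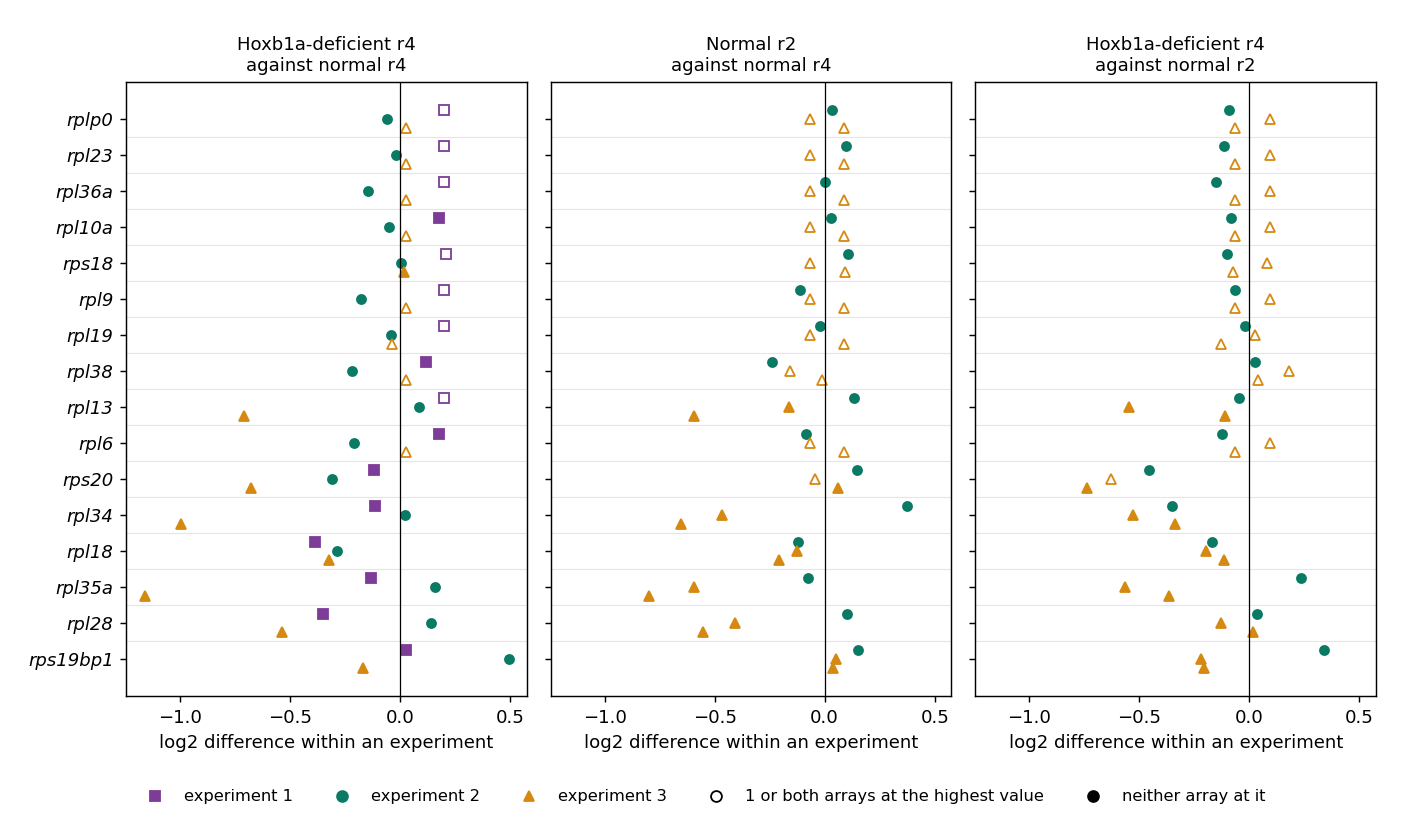
Log2 difference of each of the 16 genes within an experiment, for Hoxb1a-deficient r4 against normal r4, normal r2 against normal r4, and Hoxb1a-deficient r4 against normal r2; colours and shapes are experiments, and open symbols mark differences in which 1 or both readings were at the array's highest value. The widest differences are those of rpl35a (-1.16) and rpl34 (-0.99) between the r4 tissues in experiment 3.

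Experiment 2 is the one experiment in which all 16 genes were read below the limit in all 3 tissues. With 1 array per tissue there is no replicate check within it. The 15 ribosomal protein genes differed between Hoxb1a-deficient and normal r4 by -0.31 (rps20) to 0.16 (rpl35a) on the log2 scale, beside -0.34 to 0.68 for the 5th to 95th percentiles of the 2211 unsaturated probes with a mean signal of 10 or more. Between normal r2 and normal r4 they differed by -0.24 (rpl38) to 0.37 (rpl34), beside -0.58 to 0.64 for 2148 such probes, and between Hoxb1a-deficient r4 and normal r2 by -0.46 (rps20) to 0.24 (rpl35a), beside -0.47 to 0.76 for 2226. Each of these ranges lay inside the central span of bright probes. The medians of the 16 genes in experiment 2 were -0.05, 0.03 and -0.09 in the same order of comparisons, beside 0.12, 0.04 and 0.06 for the bright probes. In that order 10, 6 and 12 of the 16 genes were lower. rps19bp1 was 0.49 higher in Hoxb1a-deficient r4 than in normal r4 there, against 0.03 in experiment 1 and -0.17 in experiment 3. Readings close to the limit may be compressed as well, and in experiment 2 the readings of rplp0 were at 94.2%, 93.3% and 93.3% of it in Hoxb1a-deficient r4, normal r2 and normal r4.

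For rpl28 and rpl18 the same tissue differed more between experiments 1 and 3 than the tissues differed within any experiment. rpl28 read higher in experiment 1 than in experiment 3 by 1.73 on the log2 scale in Hoxb1a-deficient r4 and by 1.54 in normal r4. For rpl18 this difference was 1.01 in Hoxb1a-deficient r4 and 1.08 in normal r4. For rpl35a it was 1.51 and 0.48, and for rpl34 0.95 and 0.07, in the same order of tissues. The median over unsaturated probes with a mean signal of 10 or more was 0.68 in Hoxb1a-deficient r4 and 0.67 in normal r4, so that bright probes in general read higher in experiment 1. The 75th percentile of the arrays was 6.15 and 6.87 in experiment 1 and 3.64 to 4.75 in experiments 2 and 3. Without the replicate block the standard error of rpl28 between the r4 tissues was 0.51, against 0.15 with it, and 0 of 16 genes passed limma's test in each comparison, beside 0.00%, 0.579% and 0.555% of all probes.

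Other genes of the translation apparatus were read in the same fits, and none passed the test in any comparison. Of all probes, 0.0123% passed in Hoxb1a-deficient r4 against normal r4, 1.70% in normal r2 against normal r4 and 2.21% in Hoxb1a-deficient r4 against normal r2. At these shares few or no calls would be expected among these genes. The ribosomal components outside the name rule were rack1, a scaffold on the head of the small subunit, and faub, which encodes a small subunit protein fused to a ubiquitin-like domain. rack1 read 3.94, 5.30 and 4.84 on the Hoxb1a-deficient r4 arrays, 4.99, 3.84 and 5.18 on the normal r2 arrays and 7.03, 5.60 and 5.48 on the normal r4 arrays, with the 2 other tissues below normal r4 on every array (-0.36 ± 0.17 for Hoxb1a-deficient r4, limma adjusted p = 0.879, and -0.36 ± 0.19 for normal r2, adjusted p = 0.585). Over all probes, groups did not overlap for 2.08% between the r4 tissues and for 8.76% between normal r2 and normal r4. faub, whose probe read 0.836 to 1.98, close to the array median, differed by 0.02 ± 0.18 between the r4 tissues (adjusted p = 0.996).

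For the 6 elongation factor genes the median fold change on the log2 scale was -0.21 in Hoxb1a-deficient r4 against normal r4, 0.02 in normal r2 against normal r4 and -0.16 in Hoxb1a-deficient r4 against normal r2. eef1a1l1, which brings aminoacyl-tRNA to the ribosome, read 117, 122 and 72.3 on the Hoxb1a-deficient r4 arrays, 132, 101 and 92.3 on the normal r2 arrays and 118, 139 and 108 on the normal r4 arrays (-0.26 ± 0.14 between the r4 tissues, limma adjusted p = 0.890). In Hoxb1a-deficient r4 it was below normal r4 in each experiment, as were 12.5% of all probes, and the groups overlapped. The readings of experiment 1 were nearly equal, at 116.9 and 117.8. The normal r4 readings of experiments 1 and 3 lay close to the array limits of 128 and 112 and may be compressed. eef2b, of the factor that moves the ribosome along the mRNA, read 0.492 to 2.17, close to the array median, and differed by -0.32 ± 0.15 (adjusted p = 0.873), and eef1g was saturated on 6 arrays. The 11 genes of other terminal oligopyrimidine mRNAs, 5 of them elongation factors already counted, had medians of -0.15, -0.01 and -0.10 in the same order of comparisons. Of the 11 genes, 2 lay below the array median on every array and 3 were saturated on at least 1 array. The medians of -0.15 and -0.10 are the values of eef1a1b, whose probe lay below the array median throughout (0.549 to 0.811). Its values are also middle values in the elongation factor medians of -0.21 and -0.16. Among the 11 genes, tpt1 read 94.4, 43.9 and 25.7 on the Hoxb1a-deficient r4 arrays, 47.0, 42.8 and 36.2 on the normal r2 arrays and 120.1, 49.3 and 38.9 on the normal r4 arrays (-0.37 ± 0.14 between the r4 tissues, adjusted p = 0.831).

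The other groups of translation genes had medians closer to 0 in Hoxb1a-deficient r4 against normal r4. This contrast was not tested and rests in part on the dim probe of eef1a1b. The 24 genes with initiation factor names, inhibitors of eIF4E included, had medians of -0.01, 0.03 and -0.02, again in that order. The 16 mitochondrial ribosomal protein genes had medians of 0.04, -0.02 and 0.08, the 6 aminoacyl-tRNA synthetase genes 0.03, -0.08 and 0.08, and the 41 genes of ribosome assembly and the nucleolus 0.04, 0.02 and 0.06. In the nucleolar group the probe of npm1a, which encodes nucleophosmin, was saturated on 3 arrays, and that of ncl, which encodes nucleolin, lay below the median on all 9 arrays (0.619 to 0.945), so that no difference is given for either. The 1 RNA polymerase I gene read, polr1f, differed by 0.01, -0.02 and 0.03. The 7 genes of the p53 response, which is set off when ribosome assembly fails, had medians of 0.09, 0.19 and -0.04. In each comparison 0 of 7 passed the test, beside 0.0123%, 1.70% and 2.21% of all probes, so that the count does not show an absent response. Of the 7 genes, 2 lay below the array median on every array. Between the r4 tissues their fitted values ran from -0.19 (sesn1) to 0.44 ± 0.12 (mdm2, limma adjusted p = 0.722).

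**Figure D5:**
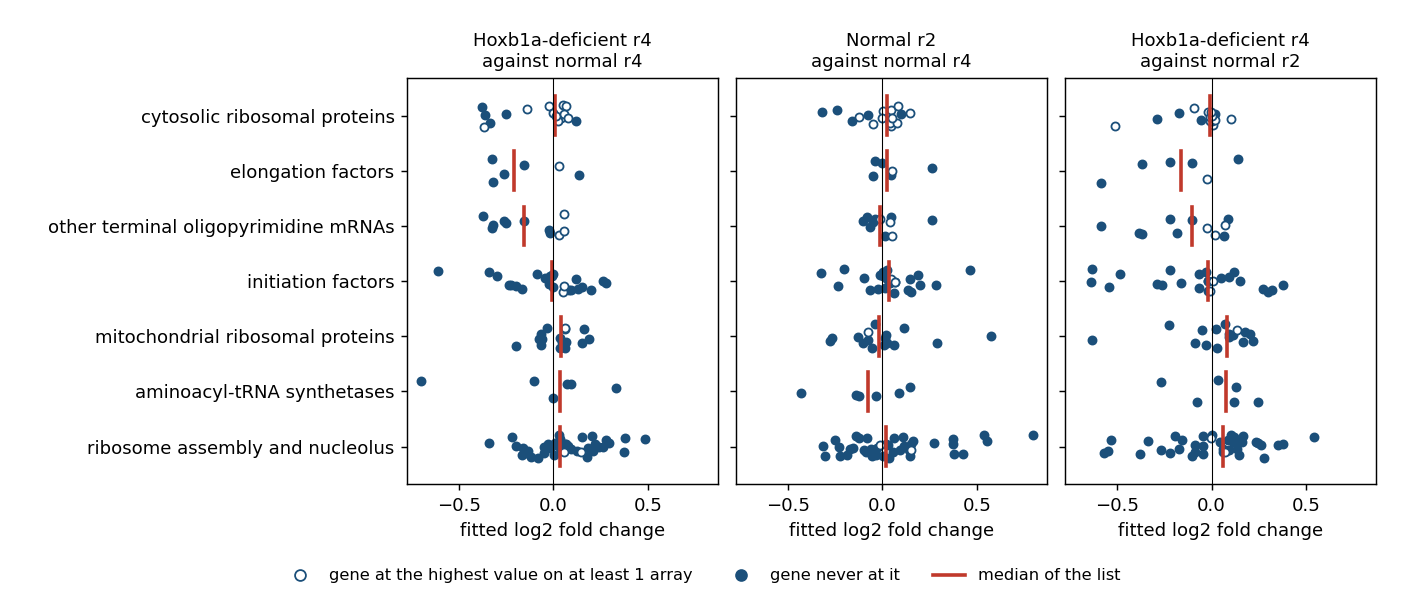
Fitted log2 fold change of each gene in the ribosomal protein set and in 6 other groups of translation genes, for the 3 comparisons; open symbols are genes at the highest value on at least 1 array and red bars are medians. No gene shown passed the test, beside 0.0123%, 1.70% and 2.21% of all probes in the 3 comparisons. The median of the ribosomal protein set, rps19bp1 included, lies at 0.01, 0.02 and -0.01.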

How the data were processed

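The deposited table has 1 column per array and 16399 rows, on a linear scale that the authors deposited with each array's median at about 1, read here as a ratio of spot intensity to an array constant. The sources used here do not give scanner, background treatment or normalization. Per the labels, RNA was amplified and biotin-labelled before hybridisation. Probes were named from the platform annotation (6079 with 1 symbol, 74 with several, 10246 with none), and 6010 symbols were looked up through Entrez IDs in a RefSeq gene table (assembly GRCz12tu, used for names only). Leaving out 172 control spots, all of 1 actb2 accession, gave 16227 probes.

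Log2 values were fitted with limma 3.58.1 in R 4.3.3 (all 9 arrays, tissue plus experiment as a replicate block, eBayes, two-sided, Benjamini-Hochberg over all probes, threshold 0.05). For normal r2 this rests on experiments 2 and 3. The design text ties replicate numbers to experiments. Deviations of same-numbered Hoxb1a-deficient and normal r4 arrays correlated with 0.683 to 0.892, and those of differently numbered ones with -0.781 to 0.504. The deviations were taken from the mean of each group and cancel within it, so that part of this contrast is built in. Normal r2 paired less well: array 2 correlated with the r4 arrays of its experiment at 0.524 and 0.531, array 3a at -0.119 and -0.0625, and array 3b at 0.222 and 0.252. For r2 the block thus rests on the design text. Arrays 3a and 3b of normal r2 correlated with r = 0.991 and were kept as 2 samples. The p-values reflect the spread among these samples, which may be partly technical, and the number of arrays limits the precision. The script was tested on simulated data. The 24 alternatives covered the block, pseudocount, normalization, dim and saturated probes, the arrays entering, and each array left out in turn. One of them, dividing each array by its maximum, was chosen after seeing the data.

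The members and lists were chosen with earlier results of these data known. Named genes were members past the test, saturated members, the 6 brightest and 4 dimmest, up to 5 in each direction that moved alike in every within-experiment difference, and a fixed set from the other lists. Tests of single genes are printed for members saturated on at most 1 array, a limit set after saturation was seen. rpl13 was added for its readings in experiment 3, and faub as the fau gene of this array, after values were seen.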

Additional observations from a re-analysis of the deposited data

How the results depend on the processing

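In all 24 alternatives 0 of the 16 genes passed the test in each comparison, with a lowest limma adjusted p among them of 0.290 for Hoxb1a-deficient r4 against normal r4, 0.241 for normal r2 against normal r4 and 0.0938 for Hoxb1a-deficient r4 against normal r2. The count over all probes varied. In Hoxb1a-deficient r4 against normal r4, with 2 probes past the test, it was 0 with no replicate block, 9 with a random block, 0 with log2(value + 1), 0 with log2(value + 16), 5 after quantile normalization, 32 after 75th percentile scaling, 7 without dim probes, 11 with trended robust eBayes, 14 with the 2 groups alone, 0 without experiment 1 and 0 with arrays divided by their maximum, and 0 to 13 without 1 array. In normal r2 against normal r4 the 276 became 94 with no replicate block, 65 and 4 with the pseudocounts 1 and 16, 443 after quantile normalization, 503 after 75th percentile scaling, 152 with arrays 3a and 3b averaged, 118 without experiment 1, 91 with arrays divided by their maximum and 98 to 437 without 1 array. In Hoxb1a-deficient r4 against normal r2 the 359 became 90 with no replicate block, 94 and 1 with the pseudocounts, 541 after quantile normalization, 583 after 75th percentile scaling, 178 with 3a and 3b averaged, 103 with the 2 groups alone, 147 without experiment 1, 93 with arrays divided by their maximum and 147 to 871 without 1 array.

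The median of the 16 genes moved to -0.33 and -0.16 in the first 2 comparisons without saturated probes, which leaves 5 genes, and with no replicate block to -0.079 in normal r2 against normal r4 and 0.10 in Hoxb1a-deficient r4 against normal r2 (0.10 with 75th percentile scaling). Signs turned for some genes. With no replicate block, normal r2 against normal r4 gave -0.14 for rps19bp1 and -0.0093 for rps20, and Hoxb1a-deficient r4 against normal r2 gave 0.18 for rpl18, 0.55 for rpl28 and 0.27 for rpl35a. In that comparison rpl28 gave 0.048 with a random block, 0.20 after quantile normalization, 0.10 after 75th percentile scaling and 0.016 without experiment 1, rpl35a gave 0.18 after quantile normalization and 0.055 after 75th percentile scaling, and rpl18 gave 0.054 after quantile normalization. Without 1 array, rps19bp1 ranged from -0.062 to 0.26 in Hoxb1a-deficient r4 against normal r4. In normal r2 against normal r4, rpl34 ranged from -0.31 to 0.36, rpl35a from -0.54 to 0.092 and rps19bp1 from -0.023 to 0.20. In Hoxb1a-deficient r4 against normal r2, rpl28 ranged from -0.13 to 0.091, rpl35a from -0.29 to 0.37 and rps19bp1 from -0.18 to 0.22. The cause was not tested. Saturation limits what these arrays can show for 11 of the 16 genes, and a change in them could be hidden above the limit.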
